A study of Mus musculus with 9 samples.

Results

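The clustered protocadherins are 58 genes of 22000 in the table of protein-coding genes, taken by gene symbol: 14 rows of the alpha cluster (symbols beginning with Pcdha), 22 of the beta cluster (Pcdhb) and 22 of the gamma cluster (Pcdhg). The family was chosen by the FPKM values of these same 9 libraries, the single metastasis libraries among them, so levels and differences of its members are a description and carry no test of their own. RNA was sequenced from 3 groups of 3 tumour samples. Liver metastases 1, 2 and 3 came from N134-RHAMMB cells injected into the tail vein, N134-RHAMMB tumours 1, 2 and 4 from the same line injected subcutaneously, and N134 tumours 1, 2 and 3 from subcutaneously injected N134 cells. N134 is a mouse pancreatic neuroendocrine tumour line, and N134-RHAMMB is a derivative that carries the name of RHAMMB, one form of the Hmmr gene's product RHAMM, a receptor for hyaluronan. All 9 samples grew in NSG mice (NOD.Cg-PrkdcscidIl2rgtm1Wjl/SzJ), which have no functional lymphocytes of the B, T or natural killer type and keep their own stroma, vessels and macrophages. The labels do not say how many clones a line holds or whether the 3 samples of a group came from separate mice, so p-values measure the spread between these samples only. Tumour site and injection route changed together between metastases and subcutaneous tumours and cannot be told apart.

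Clustered protocadherins are cadherin-related adhesion proteins best known from neurons, where each cell expresses its own small combination of isoforms and the proteins on facing membranes bind their own kind, which lets branches of one cell recognise and avoid each other. In the alpha and gamma clusters a row of variable first exons, each with its own promoter, is spliced to constant exons that encode a shared cytoplasmic part. Beta genes have a single exon and no shared cytoplasmic part. The last variable exons of the alpha and gamma clusters are the C types, which in mouse neurons are expressed more evenly from cell to cell than the other isoforms. Promoter choice depends on DNA methylation, on the insulator protein CTCF, which binds an element found in nearly all of these promoters, and on cohesin. Pcdhac2, Pcdhb1, Pcdhgc4 and Pcdhgc5 are known for lacking that element.

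All 58 members lay on mouse chromosome 18 (GRCm38), in the order alpha, beta, gamma. All were on the plus strand except Pcdhgb8, whose strand is not known here because the GENCODE M21 annotation lacks it. The alpha cluster spanned chr18:36930184-37187661, the beta cluster chr18:37264938-37524479 and the gamma cluster chr18:37661793-37841873. In the GENCODE M21 annotation of that build, each alpha gene shared between 48.6% and 54.9% of its exonic bases with other members. The gamma genes other than Pcdhgb8 shared between 7.1% and 66.8%, with a median of 45.0%. The authors' estimate therefore had to divide fragments from shared exons among neighbouring isoforms, and single alpha and gamma values are uncertain in that respect. Beta genes have 1 exon and share no exonic base with another member, apart from Pcdhb21 (9.7%) and Pcdhb22 (6.9%). A fragment of a beta gene can still come from a near-identical paralog, and the strand setting of the libraries is not given in the sources used here. Sequences of members are not reproduced here.

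Depth, estimated from the smallest steps between values in the authors' unit FPKM (fragments for each kilobase of a transcript and each M mapped fragments), ran from 14.4 M fragments in N134-RHAMMB tumour 4 to 17.9 M in metastasis 2. A single fragment on a 2 kb transcript was worth 0.0280 to 0.0347 FPKM. The islet genes that define the tumour line (Ins1, Ins2, Iapp, Chga and 5 others) were all above 1 FPKM in every library, and all 8 hepatocyte markers were above 1 FPKM in every metastasis. Hmmr stood at 36.0 to 43.3 FPKM in the metastases, 49.2 to 51.3 FPKM in tumours of N134-RHAMMB and 39.2 to 44.9 FPKM in N134 tumours, ranges that overlap between metastases and N134 tumours. A library's log2 values correlated with those of its group at 0.982 to 0.988 in the subcutaneous groups across genes, at 0.979 between metastases 1 and 3, and at 0.948 and 0.946 between metastasis 2 and metastases 1 and 3. Metastasis 2 thus stood apart from its group, and results that rest on it are given with and without it. These are bulk samples, in which fewer cells of a type and less RNA per cell cannot be told apart.

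Summed over its members, the beta cluster stood at 67.5, 6.77 and 67.4 FPKM in metastases 1, 2 and 3, against 45.6, 46.6 and 48.9 in N134-RHAMMB tumours 1, 2 and 4 and 61.7, 48.0 and 56.4 FPKM in N134 tumours 1, 2 and 3. Metastasis 2 lay far below every other library, and metastases 1 and 3 lay above all 6 subcutaneous tumours. The gamma cluster summed to 56.6, 22.8 and 68.3 FPKM in the metastases, 57.6, 47.5 and 67.7 FPKM in tumours of N134-RHAMMB and 73.0, 52.7 and 62.3 FPKM in N134 tumours. The alpha cluster, the lowest of the 3 sums in each of the 9 libraries, gave 14.8, 5.39 and 14.3 FPKM in the metastases, 15.0, 13.6 and 16.7 FPKM in tumours of N134-RHAMMB and 17.4, 13.8 and 15.1 FPKM in N134 tumours. For both clusters metastasis 2 was again the lowest library, while metastases 1 and 3 lay within the range of the subcutaneous tumours. As group means these sums were 47.2 ± 35.1, 47.0 ± 1.73 and 55.4 ± 6.89 FPKM for beta in metastases, N134-RHAMMB tumours and N134 tumours, 49.2 ± 23.6, 57.6 ± 10.1 and 62.7 ± 10.2 FPKM for gamma, and 11.5 ± 5.31, 15.1 ± 1.54 and 15.4 ± 1.79 FPKM for alpha (SD, n = 3 each). Without metastasis 2 the metastasis means were 67.5 FPKM for beta, 62.5 FPKM for gamma and 14.6 FPKM for alpha.

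**Figure D1:**
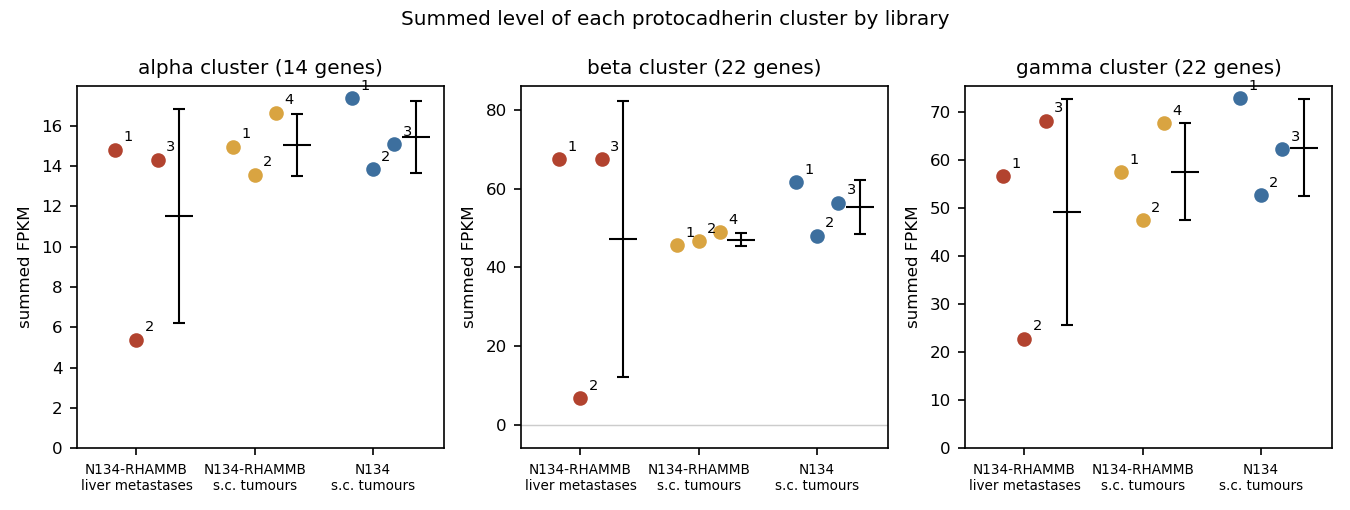
Summed FPKM of the alpha, beta and gamma clusters in each library (points, numbered by replicate), with group mean and SD (black bars, n = 3). Metastasis 2 is the lowest library in each panel, at 5.39, 6.77 and 22.8 FPKM.

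The number of members at 1 FPKM or more was 36, 6 and 38 in metastases 1, 2 and 3, against 33 to 37 in the 6 subcutaneous tumours. The 6 in metastasis 2 were Pcdhb1, Pcdhga1, Pcdhgb2, Pcdhga5, Pcdhgc3 and Pcdhgc4, with no alpha gene among them. 15 members stayed below 1 FPKM in every library, 6 of them alpha, 5 beta and 4 gamma. In the 8 libraries other than metastasis 2 the order of the 58 members was much the same: Spearman's rho between their profiles was 0.887 to 0.983 over 28 pairs of libraries. For the 8 pairs that include metastasis 2 it was 0.312 to 0.569. These coefficients are across genes, which share libraries and exons and are no independent points.

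**Figure D2:**
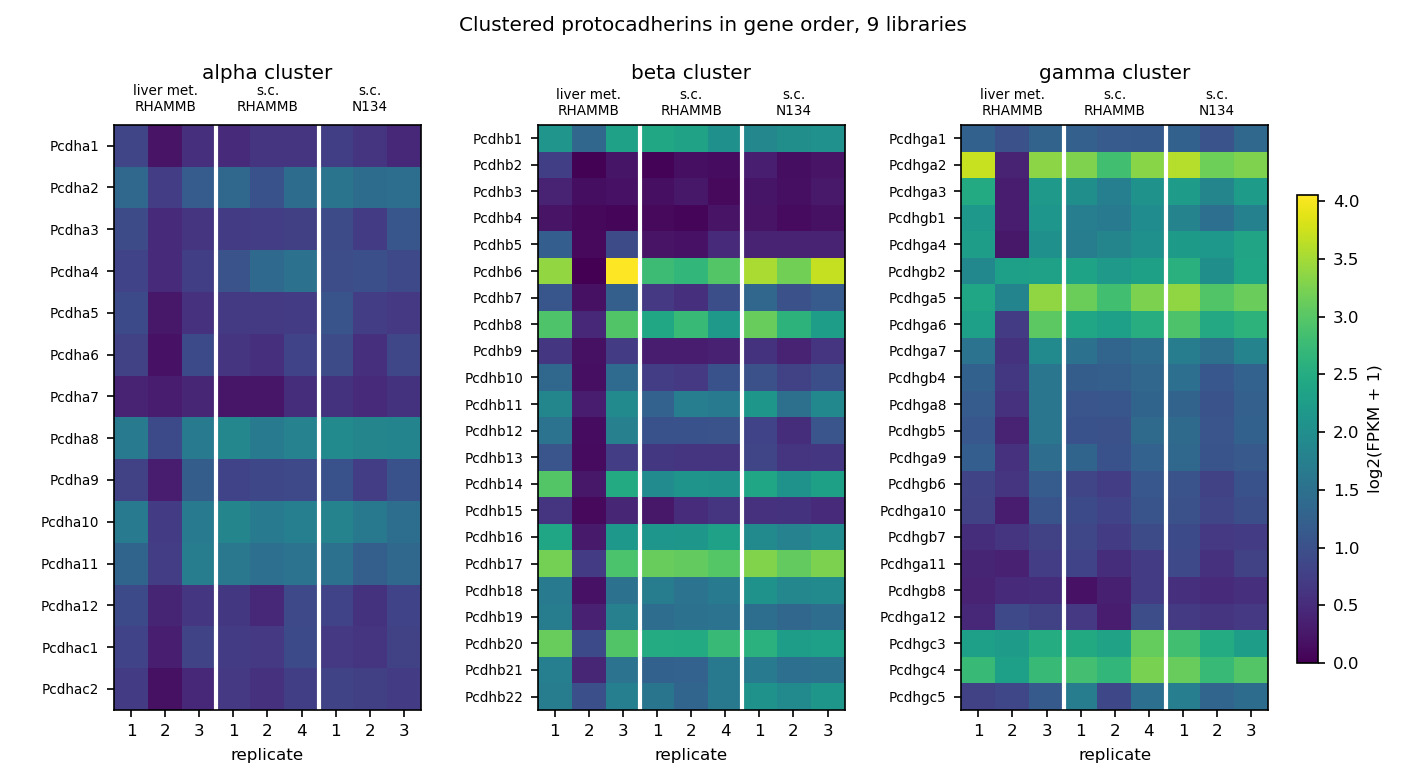
Level of the 58 members in gene order (rows) and 9 libraries (columns, replicate numbers below), as log2(FPKM + 1). The column of metastasis 2 is dark over nearly the whole beta cluster and over Pcdhga2 to Pcdhga4, where Pcdhga2 stood at 0.323 FPKM, and is like the others at Pcdhgb2 (3.86 FPKM) and Pcdhgc3 (3.74 FPKM).

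Alpha genes were low throughout, with means over the 9 libraries of 0.351 to 2.27 FPKM, and 6 of 14 passed the filter used for testing (1 FPKM or more in at least 3 libraries). The leading isoforms were Pcdha8 and Pcdha10, both ordinary variable isoforms (values of single libraries are given here and below in the replicate order of the sums above). Pcdha8 stood at 2.16, 0.871 and 2.17 FPKM in the metastases, against 2.68, 2.19 and 2.46 in N134-RHAMMB tumours and 2.81, 2.58 and 2.55 in N134 tumours. Pcdha10 stood at 2.19, 0.642 and 2.20 FPKM in the metastases, against 2.61, 2.14 and 2.37 in N134-RHAMMB tumours and 2.53, 2.12 and 1.76 in N134 tumours. In both genes metastasis 2 was lowest, at 40.3% and 29.3% of the mean of metastases 1 and 3, and Pcdha8 was also lower in metastases 1 and 3 than in any subcutaneous tumour. The C types, of which Pcdhac2 is known in mouse for the spacing of serotonin-producing axons, were lower still. Pcdhac1 stood at 0.764, 0.262 and 0.777 FPKM in the metastases, against 0.630, 0.598 and 0.874 in N134-RHAMMB tumours and 0.594, 0.524 and 0.728 in N134 tumours. Pcdhac2 stood at 0.623, 0.139 and 0.373 FPKM in the metastases, against 0.587, 0.497 and 0.680 in N134-RHAMMB tumours and 0.782, 0.697 and 0.649 in N134 tumours. Metastasis 2 was the lowest library for both and the 2 genes stayed below 1 FPKM in all 9. The other 4 alpha genes past the filter were Pcdha2, Pcdha4, Pcdha9 and Pcdha11, between 0.252 and 2.30 FPKM in any library. Pcdha4 stood at 0.755, 0.396 and 0.684 FPKM in the metastases, 1.04, 1.60 and 1.86 FPKM in tumours of N134-RHAMMB and 0.936, 0.984 and 0.865 FPKM in N134 tumours, with no overlap between any 2 of the groups. The 6 variable alpha genes under the filter (Pcdha1, Pcdha3, Pcdha5, Pcdha6, Pcdha7 and Pcdha12) reached 1.11 FPKM at most.

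The beta cluster held the member with the highest mean of the family, Pcdhb6. Pcdhb6 was listed at 9.55, 0 and 15.6 FPKM in the metastases, against 5.83, 5.40 and 6.86 in N134-RHAMMB tumours and 10.6, 8.12 and 12.0 in N134 tumours. Metastasis 3 was the highest library and metastasis 1 lay within the range of the N134 tumours, while the N134-RHAMMB tumours were the lowest of the libraries in which the gene was detected. The value of Pcdhb6 in metastasis 2 is listed at 0 with the status OK, and no fold is given against it. Pcdhb17 stood at 8.19, 0.650 and 6.47 FPKM in the metastases, against 7.67, 7.46 and 6.90 in N134-RHAMMB tumours and 8.80, 7.41 and 8.54 in N134 tumours. Pcdhb20 stood at 7.63, 0.875 and 6.77 FPKM in the metastases, against 4.66, 4.57 and 5.73 in N134-RHAMMB tumours and 5.01, 3.79 and 3.87 in N134 tumours. Pcdhb8 stood at 6.67, 0.369 and 6.79 FPKM in the metastases, against 4.32, 5.67 and 3.52 in N134-RHAMMB tumours and 7.68, 5.15 and 3.83 in N134 tumours. In these genes metastasis 2 was the lowest library, at 8.87%, 12.1% and 5.49% of the mean of metastases 1 and 3 for Pcdhb17, Pcdhb20 and Pcdhb8. For Pcdhb20 metastases 1 and 3 exceeded every subcutaneous tumour. Pcdhb14 stood at 6.81, 0.199 and 4.60 FPKM in the metastases, against 2.87, 3.29 and 3.22 in N134-RHAMMB tumours and 4.25, 3.22 and 3.95 in N134 tumours. Pcdhb16 stood at 4.23, 0.226 and 3.47 FPKM in the metastases, against 3.39, 3.41 and 3.98 in N134-RHAMMB tumours and 2.84, 2.47 and 2.89 in N134 tumours. Pcdhb11 stood at 2.63, 0.234 and 2.81 FPKM in the metastases, against 1.43, 2.32 and 2.16 in N134-RHAMMB tumours and 3.45, 1.84 and 2.71 in N134 tumours. Pcdhb14, like Pcdhb20, was higher in metastases 1 and 3 than in all 6 subcutaneous tumours, whereas the other 2 overlapped with them. Pcdhb18 stood at 2.22, 0.153 and 1.87 FPKM in the metastases, against 2.28, 1.92 and 2.18 in N134-RHAMMB tumours and 3.24, 2.69 and 2.86 in N134 tumours. Pcdhb22 stood at 2.30, 0.980 and 2.38 FPKM in the metastases, against 1.98, 1.5 and 2.11 in N134-RHAMMB tumours and 3.17, 2.80 and 3.45 in N134 tumours. Pcdhb1 stood at 3.34, 1.52 and 3.98 FPKM in the metastases, against 4.35, 4.03 and 3.10 in N134-RHAMMB tumours and 2.67, 3.03 and 3.13 in N134 tumours. Pcdhb18 and Pcdhb22 were lower in all N134-RHAMMB tumours than in any N134 tumour. Pcdhb1 and Pcdhb22, at the 2 ends of the cluster, kept the highest levels of the beta genes in metastasis 2 among those with a mean of 1 FPKM or more in metastases 1 and 3, at 41.6% and 41.9% of that mean.

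Of the other 12 beta genes, Pcdhb7, Pcdhb10, Pcdhb12, Pcdhb19 and Pcdhb21 passed the filter, with values between 0.439 and 2.41 FPKM in the 8 libraries other than metastasis 2, where they stood at 0.0963 to 0.354 FPKM. Pcdhb2, Pcdhb3, Pcdhb4, Pcdhb5, Pcdhb9, Pcdhb13 and Pcdhb15 did not pass. Among these, Pcdhb5 was high only in metastases 1 and 3, with 1.33, 0.0777 and 0.912 FPKM in the metastases, against 0.161, 0.144 and 0.402 FPKM in tumours of N134-RHAMMB and 0.323, 0.322 and 0.303 FPKM in N134 tumours. For the 18 beta genes with a single annotated transcript, the FPKM can be turned back into approximate fragments. They summed to 3830, 384 and 3332 fragments in metastases 1, 2 and 3, against 2400 to 2446 in tumours of N134-RHAMMB and 2465 to 3084 in N134 tumours. The median gene had 119, 11.0 and 138 fragments in the metastases, and 73.0 to 99.1 in the subcutaneous tumours, and metastasis 2 was the deepest library.

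In the gamma cluster the A and B isoforms are named for a pair of sequence subfamilies. Pcdhga2 stood at 12.2, 0.323 and 9.17 FPKM in the metastases, against 8.60, 6.11 and 9.10 in N134-RHAMMB tumours and 11.2, 7.97 and 8.65 in N134 tumours. Pcdhga3 stood at 4.58, 0.249 and 3.56 FPKM in the metastases, against 3.07, 2.37 and 3.21 in N134-RHAMMB tumours and 3.69, 2.61 and 3.72 in N134 tumours. Pcdhgb1 stood at 3.47, 0.259 and 3.38 FPKM in the metastases, against 2.33, 2.23 and 2.91 in N134-RHAMMB tumours and 2.52, 1.80 and 2.44 in N134 tumours. These neighbours, with Pcdhga4, form an unbroken run of 4 genes that in metastasis 2 stood at 3.02% to 7.55% of the mean of metastases 1 and 3. Pcdhga4 stood at 3.80, 0.199 and 3.12 FPKM in the metastases, against 2.27, 2.59 and 3.12 in N134-RHAMMB tumours and 3.61, 3.46 and 4.15 in N134 tumours. Pcdhgb2 stood at 2.70, 3.86 and 3.98 FPKM in the metastases, against 4.11, 3.56 and 3.94 in N134-RHAMMB tumours and 4.93, 3.07 and 4.24 in N134 tumours. The next gene downstream, Pcdhgb2, was the exception in metastasis 2: at 3.86 FPKM it lay within the range of the subcutaneous tumours and at 116% of the mean of metastases 1 and 3. Pcdhga5 stood at 4.28, 2.53 and 9.41 FPKM in the metastases, against 7.88, 6.11 and 8.51 in N134-RHAMMB tumours and 9.42, 6.73 and 7.75 in N134 tumours. Pcdhga6 stood at 3.87, 0.634 and 7.18 FPKM in the metastases, against 4.27, 3.91 and 4.75 in N134-RHAMMB tumours and 6.56, 4.44 and 5.16 in N134 tumours. Metastasis 1 was low for both genes compared with metastasis 3, and metastasis 2 was the lowest library. Pcdhga1, the first gene of the cluster, had 1.38, 1.01 and 1.44 FPKM in the metastases and 1.05 to 1.57 FPKM in the subcutaneous tumours. The remaining 11 A and B genes stood between 0.148 and 2.79 FPKM in all libraries, 6 of them past the filter. In metastasis 2, Pcdhga12 (0.860 FPKM), Pcdhgb8 (0.396 FPKM) and Pcdhgb7 (0.543 FPKM) lay within the range of the subcutaneous tumours or, for Pcdhgb7, just below it. The values of Pcdhgb8 carry a low-data status.

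The gamma C types were less reduced in metastasis 2 than most gamma A and B genes. Pcdhgc4 is known in mice as the isoform on which survival of interneurons depends, and Pcdhgc3 for binding the Wnt pathway scaffold Axin1. Pcdhgc3 stood at 3.90, 3.74 and 4.71 FPKM in the metastases, against 4.49, 4.03 and 7.53 in N134-RHAMMB tumours and 6.12, 4.62 and 3.76 in N134 tumours. Pcdhgc4 stood at 5.74, 3.91 and 5.61 FPKM in the metastases, against 6.20, 5.40 and 8.46 in N134-RHAMMB tumours and 7.63, 5.62 and 6.81 in N134 tumours. Pcdhgc5 stood at 0.734, 0.819 and 1.22 FPKM in the metastases, against 2.27, 0.846 and 1.78 in N134-RHAMMB tumours and 2.33, 1.5 and 1.71 in N134 tumours. Metastasis 2 kept Pcdhgc3 at 86.9%, Pcdhgc4 at 68.8% and Pcdhgc5 at 84.0% of the mean of metastases 1 and 3, and for Pcdhgc5 it lay between the other 2 metastases. For Pcdhgc3 and Pcdhgc4 it was still the lowest library. Some A and B genes kept as much: Pcdhga1 (71.7%), Pcdhgb2 (116%), Pcdhgb7 (92.4%), Pcdhgb8 (105%) and Pcdhga12 (152%). The 3 C types made up 18.3%, 37.1% and 16.9% of the gamma sum in metastases 1, 2 and 3, against 21.7% to 26.3% in tumours of N134-RHAMMB and 19.7% to 22.3% in N134 tumours. Their sum was 10.4, 8.47 and 11.5 FPKM in the metastases and 10.3 to 17.8 FPKM in the subcutaneous tumours, so the greater share in metastasis 2 came with a lower sum of the other gamma genes and not with a higher level of the C types. The 4 genes known for lacking the CTCF-bound promoter element, a grouping made after the values were seen, stood in metastasis 2 at 27.9% (Pcdhac2), 41.6% (Pcdhb1), 68.8% (Pcdhgc4) and 84.0% (Pcdhgc5) of the mean of metastases 1 and 3.

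**Figure D3:**
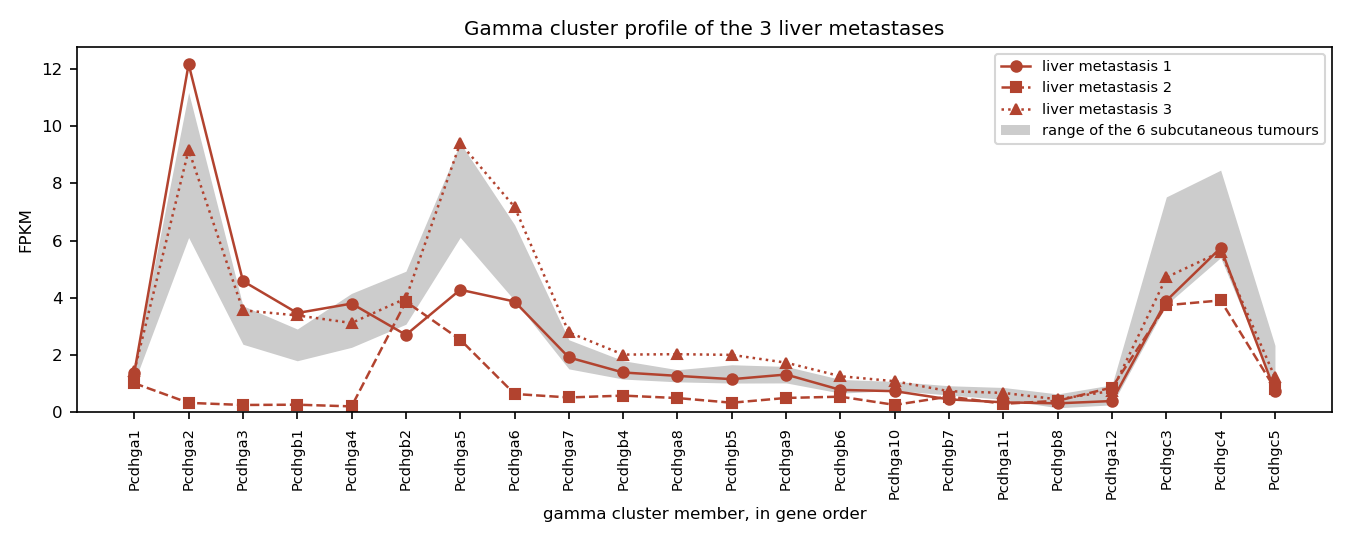
FPKM of the 22 gamma genes in gene order in liver metastases 1, 2 and 3 (lines), over the range of the 6 subcutaneous tumours (grey band). Metastasis 2 falls below the band at Pcdhga2 to Pcdhga4, meets it at Pcdhgb2 (3.86 FPKM), and is near it again at Pcdhgc3 (3.74 FPKM); metastasis 1 lies below metastasis 3 at Pcdhga5 (4.28 against 9.41 FPKM).

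Metastasis 2 can be summarised by its level relative to the mean of metastases 1 and 3, over genes where that mean was 1 FPKM or more. Over all genes the median was 92.3%, and 2.62% of the 12594 genes stood below 25%. Of the 58 members 37 could be compared; their median was 16.5%, and 22 stood below 25%. In the beta cluster 14 of 16 genes were below 25% (median 8.12%), in the gamma cluster 7 of 16 (median 31.2%), and in the alpha cluster 1 of 5 (median 35.8%). Of the 2 gamma C types that could be compared none was below 25%. The lowest were Pcdhb6, Pcdhga2 (3.02%), Pcdhb14 (3.50%) and Pcdhb12 (4.45%). Since the family was picked with these values known, the counts describe it and say nothing further.

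A stricter rule, chosen after the values were seen, asked that metastasis 2 be at or below 1/3 of the lowest of the other 8 libraries, among genes at 1 FPKM or more in all of those 8. It was met by 1.07% of 11369 genes and by 16 of 31 members, which were 10 of 12 beta genes, 6 of 15 gamma genes and 0 of 4 alpha genes. Just inside it were Pcdhgb5, whose level in metastasis 2 was 3.10-fold below the lowest other library, and Pcdhb21 (3.90-fold), and just outside were Pcdhga7 (2.96-fold) and Pcdha10 (2.74-fold). The same rule applied to each other library found no member, although with metastasis 2 in the comparison only 6 members were left to judge. Few genes of any kind met it there, 0 to 9 of 11152 to 11194 in a library. In the opposite direction, no member in any library reached 1 FPKM and 3 times its highest value elsewhere. Over all genes only 3 to 39 did so in a library, of 12065 to 12551 at 1 FPKM or more.

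**Figure D4:**
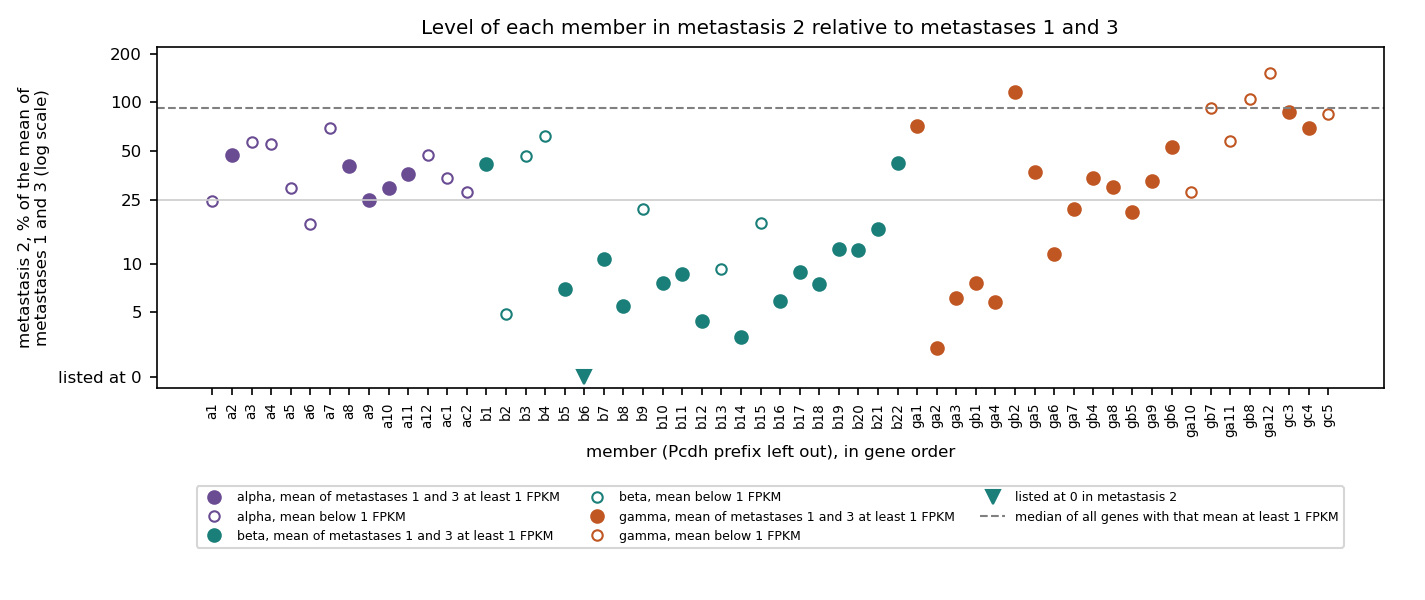
Level of each member in metastasis 2 as a percentage of the mean of metastases 1 and 3, in gene order on a log axis; filled points had a mean of 1 FPKM or more, the dashed line is the median of all genes (92.3%) and the grey line marks 25%. Filled beta points between the 2 ends of the cluster and those of Pcdhga2 to Pcdhga4 all lie below the grey line. The open points of Pcdhb3 (46.2%) and Pcdhb4 (62.0%) lie above it. Pcdhb6, listed at 0, is drawn as a triangle at the bottom.

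Genes around the clusters were lower in metastasis 2 by smaller margins. Within 500000 bases of the outermost members or between the clusters lay 32 other genes, of which 25 could be compared: their median was 65.0% of the mean of metastases 1 and 3, with a range of 28.8% to 99.7%, and none was below 25%. Taf7, a subunit of the general transcription factor TFIID that lies between the beta and gamma clusters, had 11.9, 4.62 and 11.2 FPKM in the metastases, against 11.0 to 12.2 FPKM in the 6 subcutaneous tumours. Slc25a2, a mitochondrial ornithine carrier gene also there, stood at 84.9%, with values under 1 FPKM in every library. Gm42416, Gm37013 and Gm37388 are gene models that run from the alpha into the gamma cluster. Like Slc25a2, they had a mean under 1 FPKM in metastases 1 and 3 and were not among the genes compared. All of these gene models were near 0 in metastasis 2 and also in some other libraries. Pcdh1, a non-clustered protocadherin downstream of the gamma cluster, was the lowest neighbour, at 11.5, 3.35 and 11.7 FPKM in the metastases and 6.32 to 9.14 FPKM in the subcutaneous tumours.

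Cell type markers were read beside this profile. The 8 hepatocyte markers summed to 3253, 3347 and 3438 FPKM in metastases 1, 2 and 3, and to 3.25 to 7.32 FPKM in the subcutaneous tumours. By sum metastasis 2 lay between the other metastases, but single markers differed. In metastasis 2 they stood at 82.6% to 146% of the mean of metastases 1 and 3, with a median of 112%. Fga, Fgb, Hpx and Serpinc1 were highest in metastasis 2 among the metastases, and Alb and Cyp2e1 were lowest. The 9 islet markers summed to 42180, 46770 and 47360 FPKM in the metastases and to 30830 to 41080 FPKM in the subcutaneous tumours, and Ins1 alone was below 25% in metastasis 2, at 21.7% of the mean of metastases 1 and 3. Of 6 listed neuron genes 5 were found, and their sum, like those of the clusters, was lowest in metastasis 2. Rbfox3, Snap25, Nefl, Nefm and Prph summed to 51.8, 15.8 and 48.8 FPKM in the metastases. Most of that sum was Snap25 (26.7, 10.9 and 29.9 FPKM in the metastases). The median of the 5 genes in metastasis 2 was 23.6% of the mean of metastases 1 and 3, with a range of 7.80% to 38.5%. Between the subcutaneous groups the directions differed. The neuron sum was higher with N134-RHAMMB (43.4 to 55.8 FPKM) than with N134 (31.2 to 39.0 FPKM), whereas the mean sum of each cluster was lower. Fibroblast markers, 6 of 6 detected at 1 FPKM or more in every library, summed to 390, 171 and 323 FPKM in the metastases and 272 to 845 FPKM in the subcutaneous tumours. Most of that sum was Col3a1 (285, 111 and 237 FPKM in the metastases). Col3a1, Col1a1, Col1a2 and Lum were lowest in metastasis 2 among the metastases. Dcn (34.0, 32.5 and 24.4 FPKM) and Pdgfra (2.55, 2.61 and 1.93 FPKM) were not. Macrophage markers (47.6, 29.5 and 30.5 FPKM in the metastases), endothelial markers (31.6, 30.5 and 35.0 FPKM) and Schwann cell markers (10.9, 8.83 and 10.1 FPKM) were lowest in metastasis 2 as well, and of the Schwann cell markers Sox10 was listed at 0 in all metastases. Skeletal muscle markers were high in 2 libraries only, with sums of 132 and 155 FPKM for N134-RHAMMB tumours 2 and 4, against 4.46 to 8.13 FPKM in the metastases and 9.96 to 19.1 FPKM in the other subcutaneous tumours. The part of neuronal, fibroblast or other cells in the protocadherin profile was not tested.

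Metastases 1 and 3 had like beta sums, and single members of all 3 clusters differed between them. The ratio of metastasis 1 to metastasis 3 had a median of 0.991 over all genes past the filter, 1.05 over alpha genes (0.581 to 1.79) and 1.16 over beta genes (0.612 to 3.87). From Pcdhga2 to Pcdhga4 it was 1.03 to 1.33, whereas over the 14 consecutive genes from Pcdhgb2 to Pcdhga12 it was 0.455 to 0.760, with the lowest value at Pcdhga5. In the C types it was 0.827 for Pcdhgc3, 1.02 for Pcdhgc4 and 0.603 for Pcdhgc5. With 1 library on each side this has no replicate check, and the gamma genes share exons.

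Against the 6 subcutaneous tumours, metastases 1 and 3 were higher in both libraries than in any tumour for 6 of the 38 members past the filter: Pcdhb10, Pcdhb12, Pcdhb14, Pcdhb19, Pcdhb20 and Pcdhgb1. Over all 12862 genes past the filter 11.1% did the same. Pcdha4 and Pcdha8 were lower in both than in any subcutaneous tumour, 2 of 38, where 11.2% of all genes were. For Pcdhb12, for example, metastases 1 and 3 had 1.92 and 2.41 FPKM, against 1.02 to 1.06 FPKM in tumours of N134-RHAMMB and 0.439 to 1.10 FPKM in N134 tumours. Among members under the filter, Pcdhb5 and Pcdhb9 were also higher in both.

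**Figure D5:**
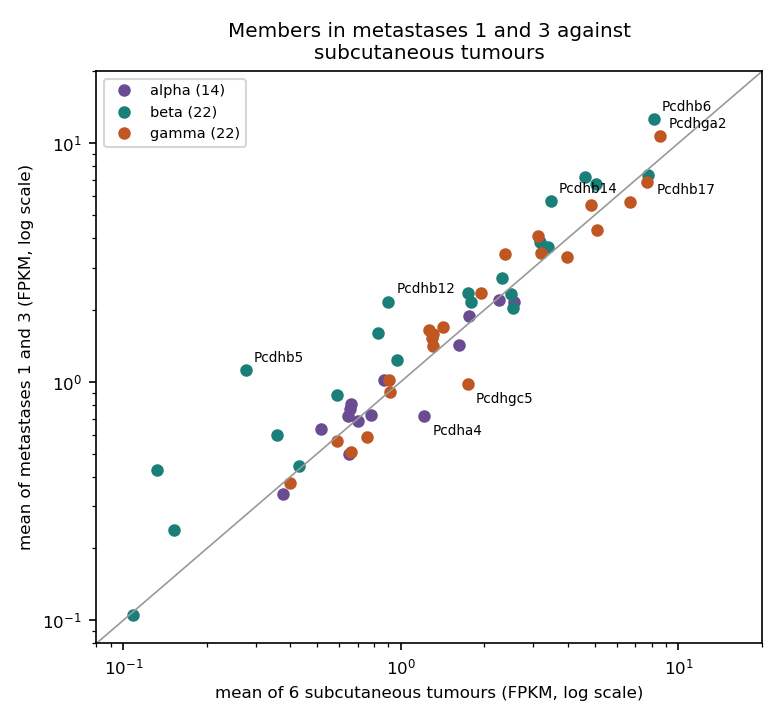
Mean FPKM of each member in metastases 1 and 3 (vertical) against its mean over the 6 subcutaneous tumours (horizontal), both on log axes, coloured by cluster, with the line of equal levels. Most beta genes lie above the line, with Pcdhb12 and Pcdhb5 farthest above it among those labelled, and Pcdha4 and Pcdhgc5 lie below it.

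The comparison of metastases with N134-RHAMMB tumours asks how the same line differs between liver and subcutis. In limma's test on log2(FPKM + 1), with adjusted p-values below 0.05 called, 0 of the 38 members past the filter were called, and 1 had an unadjusted p below 0.05. Of all 12862 genes 6.55% were called and 2143 had an unadjusted p below 0.05. Both figures are given for scale, since the family was chosen on these values. Negative differences were found for 35 of the 38 members and 7788 of all 12862 genes, with median log2 differences of -0.25 and -0.06. The member with that low unadjusted p was Pcdha4, with a log2 difference of -0.63 (SE 0.17, adjusted p = 0.0622), and the largest difference was that of Pcdhb17 at -0.79 (adjusted p from limma 0.517). Without metastasis 2 the median of the members was 0.19 and 26 of the 38 differences were positive. Over all genes the median was then -0.02, and 5984 of 12862 differences were positive. Limma then called 2 members, Pcdhb6 (0.92, adjusted p = 0.0294) and Pcdhb14 (0.68, adjusted p = 0.0472), both higher in the metastases, where 8.82% of all genes were called. Pcdha4 was called without N134-RHAMMB tumour 1 (-0.76, adjusted p from limma 0.0430) and Pcdhga5 without metastasis 3 (-0.97, adjusted p from limma 0.0388).

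For metastases against N134 tumours, in which cell line and site both differ, limma again called 0 of 38 members and 9.93% of all genes. At an unadjusted p below 0.05 were 2753 of all 12862 genes and 3 members. The 3 were Pcdhb18 (log2 difference -0.83), Pcdhb22 (-0.56) and Pcdhgc5 (-0.56), with adjusted p-values from limma of 0.164, 0.161 and 0.175. The members' median was -0.29, against -0.03 over all genes. Without metastasis 2 the members' median was 0.06, against -0.004 over all genes. Limma then called Pcdhb12 (0.85, adjusted p = 0.0131) and Pcdhb20 (0.66, adjusted p = 0.0291), where 12.2% of all genes were called. Without metastasis 3, Pcdhga5 was called (-1.04, adjusted p from limma 0.0215). Both comparisons use the same metastases, so their values are not separate evidence.

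N134-RHAMMB tumours against N134 tumours, the comparison of the 2 lines at one site, gave the fewest calls. Limma called 0 of 38 members and 0.194% of all genes. At an unadjusted p below 0.05 were 1 member (Pcdhb22) and 1648 of all 12862 genes. The 3 groups share an estimate of the spread, so metastasis 2 enters this test too. Without metastasis 2, limma called 0 members and 193 genes, and 6 members and 2456 genes had an unadjusted p below 0.05. Adjusted p from limma was then 0.0913 for Pcdhb22 and 0.117 for Pcdhb6. Pcdhb22 had a log2 difference of -0.54 (SE 0.22, adjusted p = 0.342), with group means of 1.86 ± 0.319 FPKM in tumours of N134-RHAMMB and 3.14 ± 0.324 FPKM in N134 tumours (SD, n = 3 each). Pcdhb6 had the largest difference, -0.67, with 6.03 ± 0.749 FPKM in tumours of N134-RHAMMB and 10.3 ± 1.97 FPKM in N134 tumours. Groups did not overlap for 8 of the 38 members: Pcdha4 and Pcdhb16 were higher in N134-RHAMMB tumours, where 14.0% of all genes were, and Pcdha2, Pcdhb6, Pcdhb7, Pcdhb18, Pcdhb22 and Pcdhga4 were lower, where 11.3% of all genes were. The members' coefficient of variation over the 6 subcutaneous tumours was 7.29% to 40.9% with a median of 18.8%, against a median of 15.4% over all genes past the filter.

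Other genes of the system were read from lists of known factors. None of 22 promoter choice and silencing factors (among them Ctcf, the cohesin subunits Rad21, Smc1a and Smc3, the DNA methyltransferases and the repressor Rest) was called by limma in any comparison. At an unadjusted p below 0.05 were 2, 2 and 3 for metastases against N134-RHAMMB tumours, metastases against N134 tumours and N134-RHAMMB against N134 tumours. Over all 12862 genes these counts were 2143, 2753 and 1648. In metastasis 2 these 22 genes had a median of 86.3% of the mean of metastases 1 and 3, with a range of 50.2% to 139%. Rest stood at 1.5 ± 0.384 FPKM in metastases and 0.860 ± 0.0825 FPKM in N134-RHAMMB tumours (log2 difference 0.42, adjusted p from limma 0.235). Tet1, an enzyme that oxidises methylated cytosine, averaged 9.34 ± 2.02 FPKM in metastases and 13.4 ± 1.31 FPKM in N134 tumours (SD, n = 3 each), a log2 difference of -0.49 (adjusted p from limma 0.103).

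Of 21 cytoplasmic partners and proteases of the proteins, Psen2, a catalytic subunit of the gamma-secretase that cleaves protocadherins, was higher in metastases. It averaged 19.5 ± 2.10 FPKM in metastases, 8.78 ± 1.92 FPKM in tumours of N134-RHAMMB and 9.31 ± 1.33 FPKM in N134 tumours (SD, n = 3 each), log2 differences of 1.08 (adjusted p from limma 0.00197) and 1.0 (adjusted p from limma 0.00312). The metastases also held hepatocyte RNA, and the part of liver cells in this difference was not tested. Fyn, a Src family kinase, and Brk1, a subunit of the WAVE actin complex, fell in metastases against N134 tumours by 0.71 and 0.37 on the log2 scale (adjusted p from limma 0.0184 and 0.0275), and no other gene of the list was called in the 3 comparisons. Fyn missed the threshold without metastasis 3 (adjusted p from limma 0.0613), N134 tumour 1 (0.0837) or N134 tumour 2 (0.0558), and Brk1 without metastasis 1 (0.0509), N134-RHAMMB tumour 1 (0.0558), N134 tumour 1 (0.108) or N134 tumour 2 (0.109). Brk1 also missed it with median-of-ratios scaling (0.0641) and with only the 2 groups compared (0.0861).

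Of 9 non-clustered protocadherins past the filter (12 were listed), only Pcdh8 was called in the 3 comparisons, lower in metastases than in N134 tumours at 3.36 ± 0.938 and 6.80 ± 1.69 FPKM (SD, n = 3 each; log2 difference -0.84, adjusted p from limma 0.0470). That call was lost when any of 6 libraries was left out, with adjusted p from limma up to 0.177, and also with a pseudocount of 0.1 (0.0554), with no filter (0.0812) and with only the 2 groups compared (0.0782). In metastasis 2 the 8 non-clustered protocadherins that could be compared had a median of 104% of the mean of metastases 1 and 3. Of 11 classical cadherins and catenins past the filter, Cdh11 and Cdh13 fell in metastases. Cdh11, a mesenchymal cadherin, averaged 0.264 ± 0.156 FPKM in metastases, 2.15 ± 1.10 FPKM in tumours of N134-RHAMMB and 3.42 ± 0.381 FPKM in N134 tumours (adjusted p from limma 0.00549 and 0.000392). Cdh13, a cadherin anchored to the membrane by a lipid, averaged 1.27 ± 0.324, 3.34 ± 0.120 and 4.57 ± 0.952 FPKM in metastases, N134-RHAMMB tumours and N134 tumours (adjusted p from limma 0.00588 and 0.000564). Both of these, like Psen2, passed the threshold whichever single library was left out. Among the 25 neighbours of the clusters past the filter, Pfdn1, a prefoldin subunit, fell in metastases against both other groups, by 0.51 and 0.59 on the log2 scale (adjusted p from limma 0.0351 and 0.0123). Ndufa2, a subunit of respiratory complex I, fell against N134 tumours only, by 0.36 (adjusted p from limma 0.0371). For Pfdn1 the call against N134-RHAMMB tumours was lost in 6 of 9 omissions of a library and that against N134 tumours without N134 tumour 2 (adjusted p from limma 0.0502), and the Ndufa2 call was lost in 8 of 9. The Pfdn1 call against N134-RHAMMB tumours was also lost at a mean of at least 5 FPKM (adjusted p from limma 0.0544), with quantile normalization (0.0507), with median-of-ratios scaling (0.0882) and with only the 2 groups compared (0.113). The Ndufa2 call was lost at a mean of at least 5 FPKM (0.0515), with median-of-ratios scaling (0.128) and with only the 2 groups compared (0.0989).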

How the data were processed

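RNA of 9 samples in 3 groups of 3 was analysed. The authors deposited 1 table of FPKM values for 22053 rows of protein-coding genes, with a status word per value, per the file headers. The submitters' processing notes name bcl2fastq 2.19, STAR 2.5.2, Cufflinks 2.1.1 and GRCm38 without roles. FPKM divides by transcript length and library size, so it is a relative level that depends on the other genes of that library. 7 rows with a failed estimate were dropped, and 46 rows repeating a gene ID gave way to the locus with the highest mean. No member was lost. 56 of 58 symbols were those of the nearest RefSeq gene; the rows ENSMUSG00000007440 and ENSMUSG00000023036, which carry the symbols of Pcdha11 and Pcdhga8, are called Pcdha10 and Pcdhgc4 by position.

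Genes at 1 FPKM or more in at least 3 libraries (12862) entered the test, limma 3.58.1 under R 4.3.3: log2(FPKM + 1), 1 model over 9 libraries, intensity trend, 2-sided, Benjamini-Hochberg adjustment over all genes, adjusted p below 0.05. Fold changes on this scale understate those of low genes. The script was tested on simulated data. Depth came from single-fragment steps in single-transcript genes of 2000 to 6000 bases. Starts are the table's plus 1, after which 82.3% of 21757 rows equal GENCODE M21. Members and gene lists were chosen with earlier results of these data known. By rule, members past the filter with a mean of 2 FPKM or more and the C types are given in every library, values in replicate order 1, 2, 3 (1, 2, 4 in N134-RHAMMB tumours), and from each other list the called genes with the largest differences, or the largest if none was called. Alternatives were a pseudocount of 0.1, no filter, a mean of at least 5 FPKM, median-of-ratios scaling, quantile normalization, 2 groups only, the replicate number as a block, and each library left out. Figures were drawn in Python 3.11.15.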

Additional observations from a re-analysis of the deposited data

How the results depend on the processing

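The limits are those of 3 libraries a group, of FPKM without counts, and of exons shared among alpha and gamma genes. The count of members called was 0 in each comparison and under most alternatives. It became 1 in metastases against N134-RHAMMB tumours with no filter (Pcdha4, adjusted p from limma 0.04) and with quantile normalization (Pcdha4, 0.0137), and 1 in metastases against N134 tumours with quantile normalization (Pcdhb22, 0.0387); the cause was not tested. Over the omissions of 1 library each, members called ranged over 0 to 2 in both comparisons with metastases and stayed at 0 in N134-RHAMMB against N134 tumours.

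Over all genes, calls in N134-RHAMMB against N134 tumours numbered 25, and 15 at a mean of at least 5 FPKM, 38 with quantile normalization, 169 with only the 2 groups compared, and 0 to 193 over the omissions. At a mean of at least 5 FPKM, which leaves 9507 genes, calls were 347 of metastases against N134-RHAMMB tumours (843 as reported) and 594 against N134 tumours (1277 as reported); the omissions gave 650 to 1135 and 882 to 1570.

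Differences of the log2 cluster sums, which have no test, were -0.54, -0.34 and -0.47 for beta, gamma and alpha in metastases against N134-RHAMMB tumours. Over the omissions they ranged over -1.06 to 0.51, -0.65 to 0.12 and -0.69 to -0.04. Against N134 tumours they were -0.76, -0.47 and -0.50, with ranges of -1.28 to 0.29, -0.77 to 0.00 and -0.73 to -0.07; each upper end is the value without metastasis 2. For N134-RHAMMB against N134 tumours the differences were -0.22, -0.12 and -0.03, with ranges of -0.32 to -0.14, -0.24 to 0.01 and -0.10 to 0.05. The members low in metastasis 2 by the stricter rule numbered 16, with 16 to 17 over the omissions and 15 under both other scalings.

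The labels do not say whether replicate numbers pair the samples. Deviations of same-numbered libraries correlated at 0.10 or less and those of other pairs at -0.19 to 0.15. With 3 libraries a group these values cannot settle it. With the replicate block, calls over all genes were 1 in N134-RHAMMB against N134 tumours, 646 in metastases against N134-RHAMMB tumours and 1098 against N134 tumours, and 0 members were called. With the block the calls of Cdh13 and Pfdn1 against N134-RHAMMB tumours and of Pcdh8, Brk1 and Ndufa2 against N134 tumours were lost (adjusted p from limma 0.0656, 0.0885, 0.0776, 0.0825 and 0.0837).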
